A study of Mus musculus with 12 samples.

Results

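Germinal centre B cell genes were followed in the spleens of 2 BALB/c mouse colonies. The set holds 9 of the 18193 genes that a probe set of the Affymetrix mouse genome array assigned to 1 gene alone, namely Rgs13, S1pr2, Mybl1, Mef2b, Bcl6, Fas, Eaf2, Rassf6 and Stra6l. They were measured by 12 of 45037 probe sets, with S1pr2, Mybl1 and Bcl6 having 2 each. The genes were chosen on earlier results of the same arrays, and it was not recorded which comparison was used, so that their differences are given as a description with no p-value. Where calls of the fit are counted, they stand beside the share of all probe sets or genes called and nothing is read from them. The other gene lists were also chosen with earlier results of these arrays known. Adjusted p-values of their genes therefore describe these arrays and are no independent support.

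All mice were female BALB/c mice without a transgene or deletion in the labels. They came from the BALB/cJ or the BALB/cByJ colony and were either naïve, which meant left untreated, or PG-immunized. PG-immunized mice had received 1 intraperitoneal injection of cartilage proteoglycan (PG; 100 µg protein) emulsified with 2 mg of the adjuvant dimethyldioctadecyl-ammonium bromide (DDA). No group received DDA alone, so effects of PG and of the adjuvant cannot be told apart. The labels place the spleen harvest 12 days after the injection and give no age. RNA of a 50 mg piece of spleen from 1 mouse was hybridized to each of the 12 arrays, 3 per group. PG induces arthritis in BALB/c mice, and the design asks how the spleens of the colonies differ before and after immunization.

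In an immune response, activated B cells gather in the follicles of the spleen and form germinal centres. There they divide, mutate their antibody genes and are selected by T follicular helper cells on antigen held by follicular dendritic cells. Bcl6 is the transcriptional repressor that germinal centre B cells need, and Mef2b is a transcription factor that activates Bcl6. Mybl1 (A-Myb) is a transcription factor of germinal centre B cells. S1pr2, a sphingosine-1-phosphate receptor, signals through G13 proteins and keeps these cells within the follicle, whereas Rgs13 shortens signals of G protein-coupled receptors such as those for chemokines. Fas is a death receptor carried by germinal centre B cells, and Eaf2 is a partner of the ELL elongation factors that promotes B cell death in mice. Rassf6 is a Ras association domain protein, and Stra6l is a receptor for retinol-binding protein.

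Each value below is a log2 signal relative to the median of the 12 arrays for that probe set, as deposited. It carries no absolute level, so neither the presence of a transcript nor the order of different genes can be read from it, and the defining markers of the spleen could not be checked by level. In pieces of whole spleen, more cells of a type and more RNA per cell cannot be told apart. Several arrays stood apart. Pancreatic genes were high in naïve BALB/cByJ replicate 1 (median 2.10 over 14 genes). Genes of pigment cells were high in naïve BALB/cJ replicates 1 and 2 and immunized BALB/cJ replicate 1, with medians of 0.94, 1.09 and 0.98 over 10 genes, and 3 of these genes exceeded 1 in immunized BALB/cByJ replicate 2. Erythroid genes had medians of -1.26 and -1.50 in replicates 1 and 2 of the naïve BALB/cJ group, -0.97 in immunized BALB/cJ replicate 3, and -0.24 or above in every other array.

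To show the sequences before the start sites of genes that moved together, 250 bases upstream are given for Rgs13, S1pr2, Mef2b and Bcl6. The first 3 rose with immunization in BALB/cByJ mice and carried a searched motif, and the product of Bcl6 recognises one of the motifs. Eaf2 and Rassf6 also rose there and are not shown, Eaf2 with a match of a searched motif and Rassf6 without one. The sequences are from RefSeq (GRCm38.p6), 5′ to 3′ on the strand of the gene, with motif matches in capitals.
Rgs13, chr1:144177373-144177622, minus strand: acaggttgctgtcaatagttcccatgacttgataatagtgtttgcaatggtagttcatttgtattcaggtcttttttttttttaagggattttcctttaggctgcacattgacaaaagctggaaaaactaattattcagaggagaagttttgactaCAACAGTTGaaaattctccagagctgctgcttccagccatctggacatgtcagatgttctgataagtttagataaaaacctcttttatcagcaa
S1pr2, chr9:20976794-20977043, minus strand: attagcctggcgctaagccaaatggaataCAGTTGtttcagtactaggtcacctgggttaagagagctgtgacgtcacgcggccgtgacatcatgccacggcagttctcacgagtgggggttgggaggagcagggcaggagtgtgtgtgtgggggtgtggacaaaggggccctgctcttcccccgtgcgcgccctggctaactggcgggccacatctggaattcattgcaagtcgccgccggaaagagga
Mef2b, chr8:70152511-70152760, plus strand: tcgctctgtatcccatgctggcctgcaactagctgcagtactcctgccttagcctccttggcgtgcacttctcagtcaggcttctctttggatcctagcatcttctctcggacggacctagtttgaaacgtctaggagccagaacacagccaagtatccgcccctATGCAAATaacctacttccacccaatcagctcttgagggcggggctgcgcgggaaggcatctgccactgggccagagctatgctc
Bcl6, chr16:23988853-23989102, minus strand: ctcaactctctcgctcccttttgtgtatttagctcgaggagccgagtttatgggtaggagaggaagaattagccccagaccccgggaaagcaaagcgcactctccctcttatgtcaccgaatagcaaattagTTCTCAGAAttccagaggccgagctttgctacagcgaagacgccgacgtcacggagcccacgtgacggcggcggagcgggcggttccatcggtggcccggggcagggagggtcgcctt
The capitals mark the MYB motif CAACNG in Rgs13 and S1pr2, the octamer ATGCAAAT in Mef2b and TTCNNNGAA, a palindrome read by BCL6 and STAT factors, in Bcl6. Motifs were searched on both strands from 250 bases before to 50 after the start in 32851 windows, of which 12 belonged to 8 of the 9 genes (Mybl1 was not matched). The MYB motif stood in 35.0% of all windows and in 2 of the 12. In Rgs13 it matched on both strands, overlapping, from positions -94 and -91 relative to the start, and in S1pr2 from -221. TTCNNNGAA was present in 8.30% of all windows and in 4 of the 12, from Bcl6, Eaf2 and Fas. The Bcl6 window shown held it from -118, and a further Bcl6 window, not shown, from -168, -122 and -88. The octamer, a B cell promoter element bound by OCT factors, was present in 1.74% of all windows and in that of Mef2b, from position -85. The MEF2 motif was in 3.19% of all windows and in none of the 12. These matches describe letters only.

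With immunization, Rgs13 had the largest difference of the 9 genes. In immunized BALB/cByJ mice it lay at 2.32, 1.76 and 2.57, and in naïve BALB/cByJ mice at -0.25, -1.22 and -1.08. In immunized BALB/cJ mice it lay at 0.25, 1.08 and 1.32, against -0.64, -1.14 and -0.40 in naïve BALB/cJ mice. Both immunized groups lay above both naïve groups without overlap, and all immunized BALB/cByJ arrays lay above all immunized BALB/cJ arrays. The difference with immunization was 3.07 (SE 0.32; 8.38-fold) in BALB/cByJ mice, the highest of all 45037 probe sets. In BALB/cJ mice it was 1.61 (SE 0.32; 3.05-fold), ranking 7 from the top.

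S1pr2 had the same order of groups by its probe set 1428176_at. Its values were 0.77, 0.66 and 1.14 in immunized BALB/cByJ mice, and 0.22, 0.11 and 0.23 in immunized BALB/cJ mice. Naïve BALB/cJ mice had -0.23, -0.11 and -0.18, and naïve BALB/cByJ mice had -0.44, -0.35 and -0.27. No pair of neighbouring groups overlapped. The difference with immunization was 1.21 (SE 0.11; 2.31-fold) in BALB/cByJ and 0.36 (SE 0.11; 1.28-fold) in BALB/cJ mice. The second probe set, 1447880_x_at, whose suffix marks probes that may also match other transcripts, had smaller differences of 0.40 (SE 0.10) and 0.20 (SE 0.10). On it, immunized BALB/cByJ mice at 0.23, 0.26 and 0.22 again lay above all others, while naïve BALB/cJ mice overlapped with naïve BALB/cByJ and with immunized BALB/cJ mice. The 2 probe sets correlated at r = 0.83 over the 12 arrays.

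**Figure D1:**
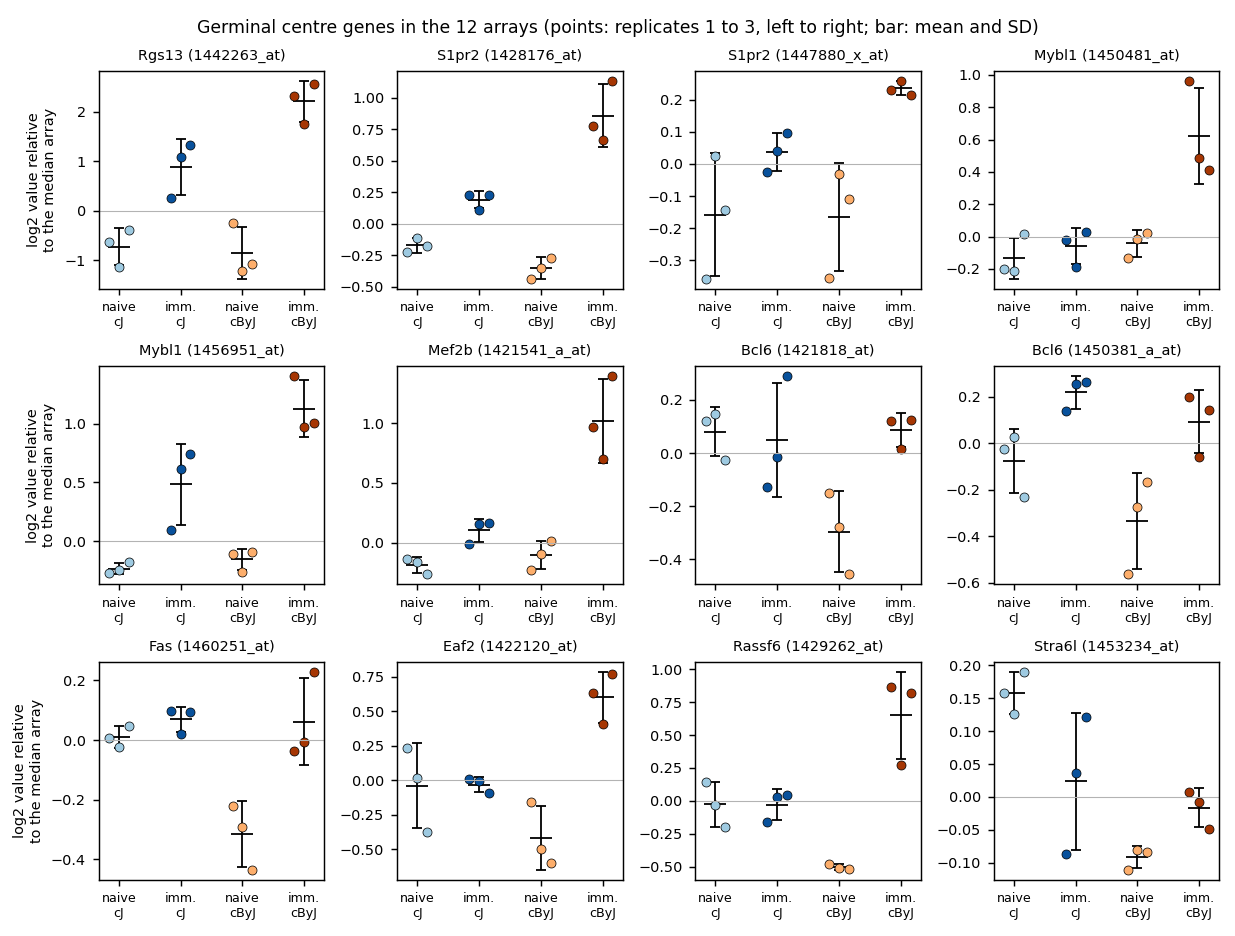
Values of the 12 probe sets in each of the 12 arrays (log2 relative to the median array; each panel has its own scale). Points are the 3 replicates of a group, and bars give the mean and SD; immunized BALB/cByJ mice lay above all other arrays for both probe sets of S1pr2 and Mybl1 and for Rgs13, Mef2b, Eaf2 and Rassf6, but not for Bcl6, Fas or Stra6l.

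Among the transcription factors, Mybl1 and Mef2b were highest in immunized BALB/cByJ mice. Mybl1 on probe set 1456951_at lay at 1.41, 0.97 and 1.00 in immunized BALB/cByJ mice and at 0.09, 0.61 and 0.74 in immunized BALB/cJ mice. All 6 naïve values lay between -0.27 and -0.09, below every immunized array. The difference was 1.28 (SE 0.15; 2.43-fold) in BALB/cByJ and 0.72 (SE 0.15; 1.64-fold) in BALB/cJ mice. On the other Mybl1 probe set, 1450481_at, the values were 0.96, 0.49 and 0.41 in immunized BALB/cByJ mice. The remaining 9 arrays lay between -0.21 and 0.03 and the other 3 groups overlapped there, so this probe set showed a difference of 0.66 (SE 0.13) in BALB/cByJ but of 0.07 (SE 0.13) in BALB/cJ mice. The 2 probe sets thus gave different readings in BALB/cJ mice (r = 0.82 over the 12 arrays).

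Mef2b lay at 0.96, 0.70 and 1.39 in immunized BALB/cByJ mice and at -0.01, 0.15 and 0.16 in immunized BALB/cJ mice. Naïve arrays lay between -0.26 and 0.01. Immunized BALB/cByJ mice stood apart from every other array, and immunized BALB/cJ mice overlapped with naïve BALB/cByJ mice. The difference with immunization was 1.12 (SE 0.14; 2.18-fold) in BALB/cByJ and 0.29 (SE 0.14; 1.22-fold) in BALB/cJ mice. A further probe set, 1429079_a_at, is annotated to both Borcs8 and Mef2b and was therefore not counted, and its difference in BALB/cByJ mice was 0.15 (SE 0.09).

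Bcl6 itself had a narrow range. On probe set 1450381_a_at it lay at 0.20, -0.06 and 0.14 in immunized BALB/cByJ and at 0.14, 0.26 and 0.26 in immunized BALB/cJ mice. The naïve values were -0.56, -0.27 and -0.17 in BALB/cByJ and -0.03, 0.03 and -0.23 in BALB/cJ mice. The immunized arrays lay above the naïve ones within each colony, by 0.43 (SE 0.11; 1.34-fold) and 0.29 (SE 0.11; 1.23-fold), but the 2 immunized groups overlapped. On probe set 1421818_at the difference was 0.38 (SE 0.11) in BALB/cByJ and -0.03 (SE 0.11) in BALB/cJ mice, and the 2 probe sets correlated at r = 0.59.

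Eaf2 and Rassf6 differed with immunization in BALB/cByJ mice, and their differences in BALB/cJ mice were near 0. Eaf2 lay at 0.63, 0.40 and 0.77 in immunized BALB/cByJ mice and at 0.01, -0.01 and -0.09 in immunized BALB/cJ mice. Naïve BALB/cByJ mice had -0.16, -0.50 and -0.60, and naïve BALB/cJ mice had 0.24, 0.02 and -0.37, overlapping with each other. The difference was 1.02 (SE 0.15; 2.02-fold) in BALB/cByJ and 0.01 (SE 0.15; 95% interval -0.32 to 0.34) in BALB/cJ mice.

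Rassf6 lay at 0.87, 0.27 and 0.82 in immunized BALB/cByJ mice and at -0.48, -0.51 and -0.52 in naïve BALB/cByJ mice. It lay at -0.16, 0.03 and 0.05 in immunized BALB/cJ and at 0.14, -0.03 and -0.20 in naïve BALB/cJ mice. The BALB/cByJ groups were the highest and the lowest of the 4, and the BALB/cJ groups lay between them and overlapped. The difference was 1.15 (SE 0.14; 2.23-fold) in BALB/cByJ and 0.00 (SE 0.14; 95% interval -0.31 to 0.30) in BALB/cJ mice.

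For Fas and Stra6l, immunized BALB/cByJ mice did not stand above the other groups. Fas lay at -0.22, -0.29 and -0.43 in naïve BALB/cByJ mice, below all 9 other arrays, which lay between -0.04 and 0.23, the highest being immunized BALB/cByJ replicate 3. Its difference with immunization was 0.38 (SE 0.09; 1.30-fold) in BALB/cByJ and 0.06 (SE 0.09) in BALB/cJ mice. Stra6l ranged only from -0.11 to 0.19, with naïve BALB/cJ mice at 0.16, 0.13 and 0.19 above all other arrays. Its differences were 0.07 (SE 0.07) in BALB/cByJ and -0.13 (SE 0.07) in BALB/cJ mice.

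Over the 12 probe sets, the median difference with immunization was 0.84 in BALB/cByJ and 0.13 in BALB/cJ mice, with medians of all probe sets near 0. In BALB/cByJ mice all 12 were higher with groups that did not overlap, as were 6.91% of all probe sets, and 6 exceeded 2-fold. In BALB/cJ mice 5 were higher and 1, Stra6l, was lower without overlap, whereas 7.53% of all probe sets were higher without overlap. In the limma fit with Benjamini-Hochberg adjustment over all probe sets, 6 of the 12 passed an adjusted p of 0.05 in BALB/cByJ mice, where 0.0488% of all probe sets were called higher (22 probe sets). They were those of Rgs13, S1pr2 (1428176_at), Mybl1 (1456951_at), Mef2b, Eaf2 and Rassf6. Since the genes were chosen on these arrays, nothing is read from these counts. The call of Eaf2 was lost under 9 of the 12 single omissions. Without naïve BALB/cByJ replicate 2 or replicate 3, 2 of the 12 were called, with a median difference between 0.75 and 0.92 over all single omissions.

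In BALB/cJ mice limma called 0 of the 12, and 0% of all probe sets and 0% of all genes. At an unadjusted p of 0.05, it would have passed 4 of the 12 and 9.19% of all probe sets. When the study's kind of test, an analysis of variance with a post hoc comparison, was run on the deposited values, 28 probe sets passed, 1 of them of these genes. Averaged over both colonies, 4 of the 12 were called, those of Rgs13, S1pr2 (1428176_at), Mybl1 (1456951_at) and Mef2b, against 0.0422% of all probe sets called higher (19 probe sets). The call of Mef2b there was lost under 9 of the 12 single omissions.

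Neutrophil genes moved with immunization in the same arrays. Of 12 measured genes of the neutrophil list, 9 rose with immunization over both colonies, against 0.176% of all 18193 genes called in either direction. The antimicrobial peptide gene Camp rose by 1.55 (SE 0.23, limma adjusted p = 0.0292) and Mpo, myeloperoxidase, by 1.46 (SE 0.23, adjusted p = 0.0346). The list's median per array was -0.13, 0.55 and 1.23 in immunized BALB/cByJ mice and 0.57, 0.87 and 0.82 in immunized BALB/cJ mice. It ranged from -1.10 to -0.82 in naïve BALB/cByJ and from -0.87 to 0.13 in naïve BALB/cJ mice. The immunized colonies overlapped for this list. When the mean of this list was added to the model, which was decided after its values had been seen, Rgs13 differed by 2.33 in BALB/cByJ mice and the median of the 12 was 0.80, but 0 of the 12 were called. As the list itself differed with immunization, this model cannot tell list and immunization apart, and the part of neutrophil RNA in these results was not tested. Heat shock genes, which respond to stress and handling, had positive differences in 12 of 12 over both colonies (median 0.32). Of these 0 were called, and 11 of 12 passed an unadjusted p of 0.05, against 9.75% of all genes. The medians were 0.46 in BALB/cJ and 0.22 in BALB/cByJ mice, and their part was not tested.

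**Figure D2:**
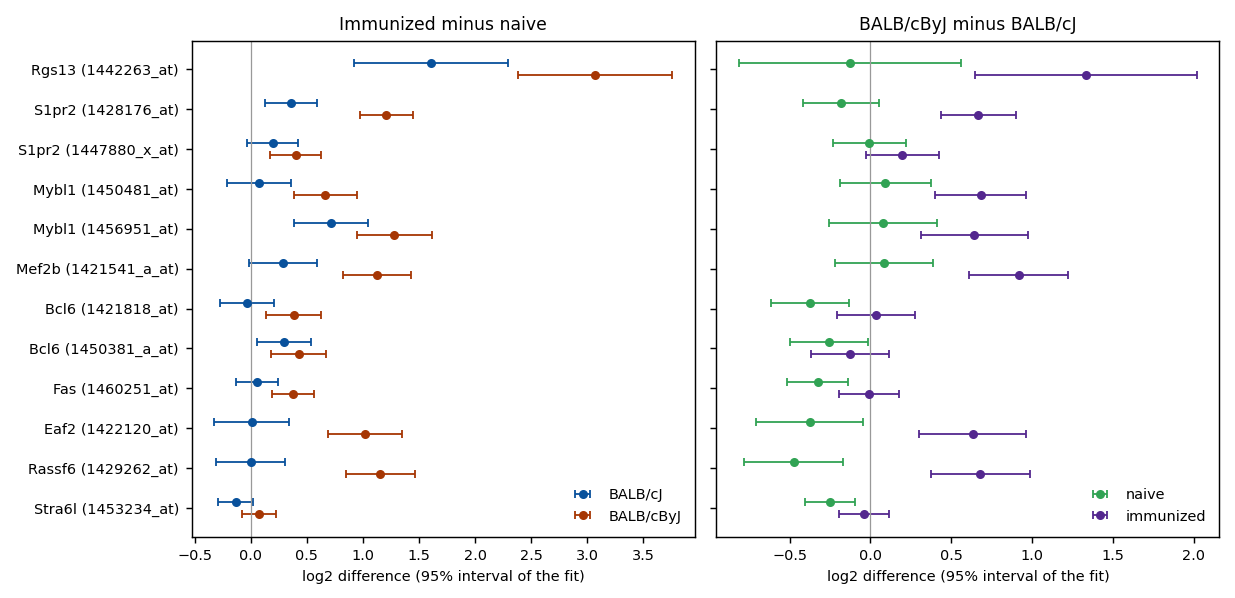
Log2 differences of the 12 probe sets with 95% intervals of the limma fit, for immunization within each colony (left) and for colony within each state (right). In the left panel every BALB/cByJ estimate lies to the right of its BALB/cJ estimate. The right panel restates this from the same group means, with every immunized estimate to the right of its naïve one, for Rgs13 at 1.33 and -0.13.

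Between the immunized colonies, 9 of the 12 probe sets were higher in BALB/cByJ mice, with a median difference of 0.64. The largest differences were those of Rgs13 at 1.33 (SE 0.32; 2.52-fold) and Mef2b at 0.92 (SE 0.14; 1.89-fold). Both Mybl1 probe sets (0.68 and 0.64), Rassf6 (0.68), S1pr2 on 1428176_at (0.67) and Eaf2 (0.63) followed. The differences of Bcl6, Fas and Stra6l lay between -0.13 and 0.04, and their 95% intervals together ran from -0.37 to 0.28. In 8 of the 12 the colonies did not overlap, with BALB/cByJ higher, as in 8.14% of all probe sets. Limma called 2 of the 12, S1pr2 (1428176_at) and Mef2b, where 0.0755% of all probe sets were called higher (34 probe sets), and nothing is read from this count either. With single arrays omitted the count ranged from 0 to 3, and it was 0 without immunized BALB/cByJ replicate 1, any of the 3 immunized BALB/cJ arrays or naïve BALB/cJ replicate 2.

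The immunized arrays fell into separate runs of sample numbers, 29 to 33 with 2 BALB/cByJ and 1 BALB/cJ mice and 48 to 50 with 1 and 2. The labels do not say that these runs were batches. In the earlier run 10 of the 12 probe sets were higher in BALB/cByJ mice (median difference 0.50), and in the later run 9 were (median 0.41). Rgs13 differed by 1.79 and 1.37, Mef2b by 0.84 and 1.23, Rassf6 by 0.73 and 0.78 and Eaf2 by 0.51 and 0.82. Mybl1 on 1456951_at differed by 1.09 in the earlier and 0.33 in the later run, where both BALB/cJ mice were higher than that of the earlier run. The naïve arrays, numbered 10 to 15, formed a run of their own, so the run and immunization cannot be told apart.

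**Figure D3:**
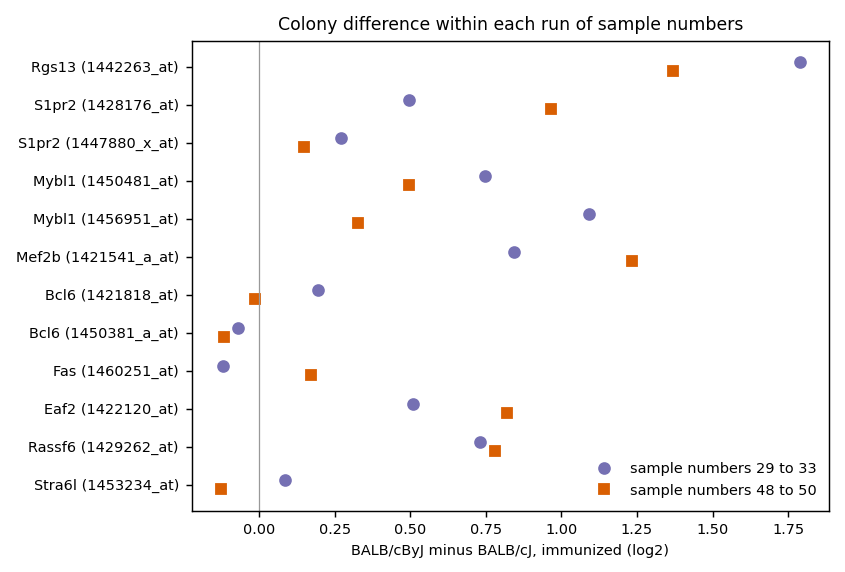
Colony difference of the 12 probe sets (BALB/cByJ minus BALB/cJ, immunized mice, log2) within the sample numbers 29 to 33 (circles) and 48 to 50 (squares). Rgs13, both S1pr2 and Mybl1 probe sets, Mef2b, Eaf2 and Rassf6 were positive in both runs, from 0.15 to 1.79, and those of Bcl6, Fas and Stra6l lay between -0.13 and 0.19.

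Between the naïve colonies the direction was the other one for most of these genes. The median of the 12 was -0.21, and 5 were lower in BALB/cByJ mice without overlap, those of S1pr2 (1428176_at), Bcl6 (1421818_at), Fas, Rassf6 and Stra6l, as were 11.9% of all probe sets. Rassf6 differed by -0.48 (SE 0.14), Eaf2 and Bcl6 (1421818_at) by -0.38 each, Fas by -0.33 (SE 0.09) and Stra6l by -0.25 (SE 0.07). Rgs13, Mybl1 and Mef2b differed by -0.13 to 0.09. Limma called 0 of the 12, with 6 at an unadjusted p of 0.05, which 18.7% of all probe sets passed, and the methods' analysis of variance also called 0. Of all probe sets 1.71% were called lower in naïve BALB/cByJ mice (770 probe sets). At the level of genes, where probe sets of a gene were averaged, Bcl6, Fas and Stra6l were called lower, against 7.54% of all genes called in either direction.

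Lists of other cell types also differed between the same naïve arrays. Of all genes 7.54% were called there in either direction, and 22.4% had an unadjusted limma p under 0.05. Of the erythroid genes 15 of 17 were called higher in naïve BALB/cByJ than in naïve BALB/cJ mice (median 1.45), and of the cell cycle genes 29 of 29 (median 0.95), Mki67 by 1.39 (SE 0.28, limma adjusted p = 0.0136). The B cell list had 17 of 17 negative differences (median -0.23), of which those of Fcer2a and Fcmr passed the test. At an unadjusted p of 0.05, 13 of the 17 passed. With the B cell list's mean as a covariate the median of the 12 germinal centre probe sets was 0.013 instead of -0.21. As that list itself differed between these arrays, this fit cannot tell list and colony apart, and nothing is read from it. Neutrophil genes had 0 of 12 positive differences (median -0.68, 0 called, 7 at an unadjusted p of 0.05). Follicular dendritic and stromal genes had 0 of 12 positive (median -0.30), and Tnfrsf1a and Bst1 were called lower, with 10 of 12 at an unadjusted p of 0.05. Plasma cell genes had a median of -0.22, with 0 of 15 called and 8 at an unadjusted p of 0.05. The part of cell composition in the naïve differences was not tested.

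The response to immunization differed in size between the colonies for these genes, as a description. The difference of the responses, BALB/cByJ minus BALB/cJ, was positive in 12 of 12 probe sets, with a median of 0.58. It was 1.46 (SE 0.45) for Rgs13, 1.16 (SE 0.20) for Rassf6, 1.01 (SE 0.22) for Eaf2, 0.85 (SE 0.15) for S1pr2 (1428176_at) and 0.83 (SE 0.20) for Mef2b. It was smallest for Bcl6 (1450381_a_at), at 0.13 (SE 0.16). For Rassf6 and Eaf2, both the lower naïve BALB/cByJ values and the higher immunized ones entered this difference. For Fas (0.32), Bcl6 on 1421818_at (0.41) and Stra6l (0.21) it came almost wholly from the naïve mice, as the immunized colonies differed by -0.01, 0.04 and -0.04. Across the arrays limma called 0% of all probe sets and 0% of all genes for this difference (smallest adjusted p 0.198 and 0.084). At an unadjusted p of 0.05, it would have passed 9 of the 12 and 7.59% of all probe sets.

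Seen by array, the mean of the 9 genes was 0.73, 0.48 and 0.81 in immunized BALB/cByJ mice and 0.03, 0.19 and 0.27 in immunized BALB/cJ mice. It lay between -0.15 and -0.08 in naïve BALB/cJ and between -0.37 and -0.26 in naïve BALB/cByJ mice. The 4 groups did not overlap by this mean, to which Rgs13 contributes most. By the median of the 9 genes the BALB/cJ groups overlapped, with immunized replicate 1 at 0.0058 and naïve replicate 1 at 0.0072. Replicate 2 was the lowest of the immunized BALB/cByJ mice, and had more than 0.5 in 3 genes where replicates 1 and 3 had it in 6. Pairs of the 9 genes correlated positively in 32 of 36 cases over the 12 arrays (median r = 0.67). After the group means were subtracted, 27 of 36 were positive (median r = 0.32). All pairs share the same 12 RNA samples, so these correlations are given as a description.

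The genes most like the mean of the 9 over the 12 arrays were Cep55, an abscission protein of cell division, and Ldha, lactate dehydrogenase A, both at r = 0.96. Gcsam (r = 0.95), a signalling protein of germinal centre B cells, Neil1 and Lmo7 (0.94 each), the abasic site protein Hmces (0.94), Selenoh (0.94) and Fam72a (0.92) followed. Neil1, a DNA glycosylase of base excision repair, was higher by 1.03 (SE 0.09) with immunization in BALB/cByJ and by 0.01 (SE 0.09) in BALB/cJ mice, and Cep55 by 0.91 (SE 0.11) and 0.20 (SE 0.11). After group means were subtracted the 8 most alike were Slc10a7, Dusp11, Stk17b, Itgb1bp1, Fhit, Card6, Fermt3 and Trmt1l (r = 0.91 to 0.94), none of them among the first 8.

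Gene by gene, Hmces was the most alike for Mef2b (r = 0.98), S1pr2 (0.94) and Mybl1 (0.92), Ldha for Rgs13 (0.96) and Gcsam for Rassf6 (0.96). The desmosomal cadherin Dsc3 was closest to Bcl6 (0.96), the B cell activation marker Cd83 to Fas (0.95), Amz2 to Eaf2 (0.95) and the copper chaperone Atox1 to Stra6l (0.90).

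Of other germinal centre genes, Gcsam rose with immunization. It lay at 0.60, 0.25 and 0.61 in immunized BALB/cByJ, at 0.06, -0.10 and 0.23 in immunized BALB/cJ, at -0.37, -0.32 and -0.44 in naïve BALB/cByJ and at 0.07, -0.06 and -0.14 in naïve BALB/cJ mice. Immunized BALB/cByJ mice were the highest, and the BALB/cJ groups overlapped. It rose by 0.86 (SE 0.11, limma adjusted p = 0.00758 over all genes) in BALB/cByJ mice, and the difference in BALB/cJ mice was 0.11 (SE 0.11, adjusted p = 0.798). The difference of the responses was 0.75 (SE 0.15, adjusted p = 0.285) and did not pass. Without naïve BALB/cByJ replicate 2 or replicate 3 the rise was no longer called. Of the 14 measured genes of the list of antibody gene mutation and germinal centre B cell products, it was the one called in BALB/cByJ mice, where 0.0824% of all genes were called. The list's median there was 0.15, with 12 of 14 positive, and the list was chosen with earlier results of these arrays known.

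Transcription and chromatin regulators of the germinal centre were not called with immunization. Of 20 measured, including Irf8, Bach2 and Foxo1, limma called 0 with immunization in either colony, and the median in BALB/cByJ mice was 0.00 with 10 of 20 positive. Of 15 genes of G13 signalling and positioning 0 were called with immunization, with a median of 0.11 in BALB/cByJ mice. Gna13, the G protein subunit through which S1pr2 signals, differed by 0.13 (SE 0.08, adjusted p = 0.704) and Cxcr5, the receptor that draws B cells into follicles, by 0.19 (SE 0.10, adjusted p = 0.667). In the RGS family without Rgs13, 0 of 15 were called and the median was 0.04. Of 20 paralogues and partners of the 9 genes, 0 were called with immunization, among them Mybl2 at -0.12 (SE 0.27, adjusted p = 0.935). In the Fas death receptor pathway 0 of 9 were called (median 0.01). Of all genes 0.0824% were called with immunization in BALB/cByJ and 0% in BALB/cJ mice. At an unadjusted p of 0.05 limma would have passed in BALB/cByJ mice 5 of 20 regulators and 3 of 15 G13 genes. It would also have passed 3 of 15 RGS genes, 2 of 20 paralogues and partners and 2 of 9 Fas pathway genes. Of all genes 8.27% passed it.

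The partners of germinal centre B cells did not pass the test either. Of 15 T follicular helper genes 0 were called in any of the 4 pairwise comparisons, with 12 of 15 positive and a median of 0.18 in BALB/cByJ mice with immunization. Pdcd1 (PD-1), an inhibitory receptor of these cells, lay at 0.37, 0.25 and 1.27 in immunized BALB/cByJ mice. Its other arrays lay between -0.63 and 0.17. The difference was 0.84 (SE 0.24, adjusted p = 0.331), and replicate 3 was far above the rest of its group. Il21, their cytokine, differed by 0.01 (SE 0.13). Follicular dendritic and stromal genes had 11 of 12 positive (median 0.14) and 0 called, and plasma cell genes 13 of 15 positive (median 0.28) and 0 called. Prdm1, the regulator of plasma cell formation, differed by 0.31 (SE 0.15, adjusted p = 0.623). The general B cell list had a median of 0.01 in BALB/cByJ and -0.09 in BALB/cJ mice, with 0 of 17 called. Cell cycle genes had a median of -0.12 in BALB/cByJ mice, with 5 of 29 positive. In BALB/cJ mice cell cycle genes had 29 of 29 positive (median 0.47), with 0 called and 22 at an unadjusted p of 0.05. Erythroid genes had medians of 0.67 in BALB/cJ and -0.26 in BALB/cByJ mice. At an unadjusted p of 0.05 limma would have passed in BALB/cByJ mice 8 of 15 plasma cell, 4 of 12 follicular dendritic, 3 of 15 T follicular helper and 2 of 17 B cell genes. Over the 8 germinal centre and partner lists it would have passed 32 of 112 genes in BALB/cByJ and 18 in BALB/cJ mice, against 8.27% and 9.99% of all genes. The analysis of variance called 0 of the 112 in BALB/cByJ mice. With immunization, limma called 0.0824% of all genes in BALB/cByJ and 0% in BALB/cJ mice.

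**Figure D4:**
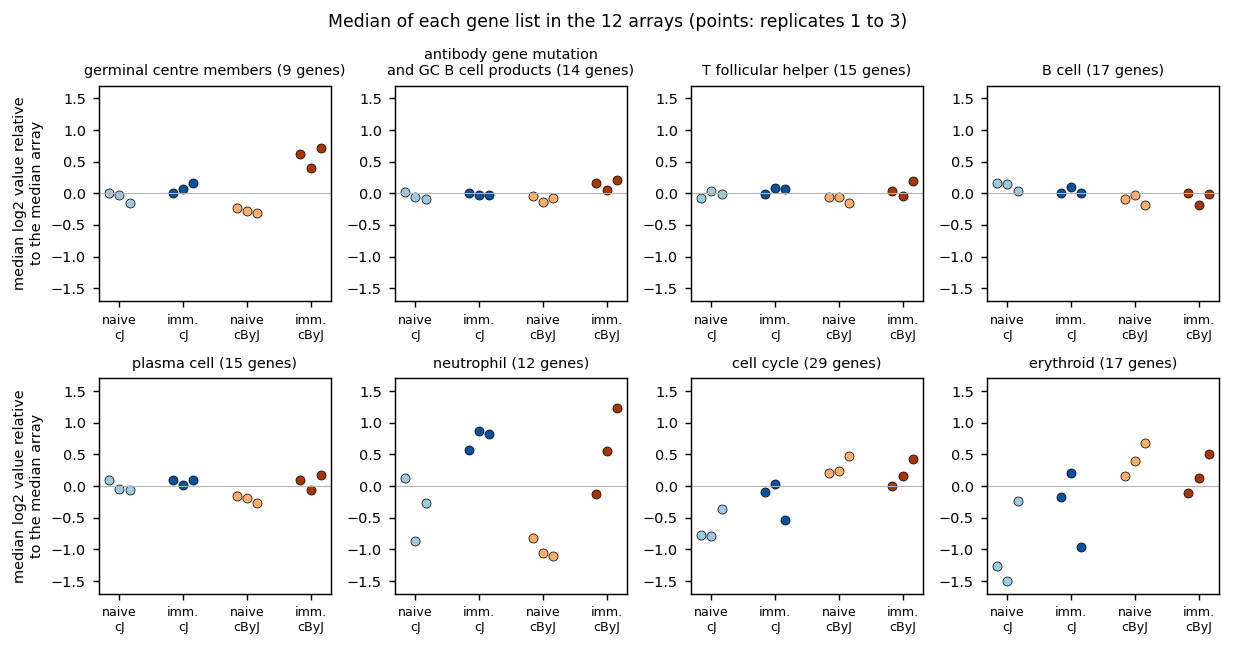
Median of 8 gene lists in each of the 12 arrays (log2 relative to the median array, one scale for all panels); points are the 3 replicates of each group. The 9 germinal centre genes, chosen on these arrays, separate immunized BALB/cByJ mice from all other arrays. The list of antibody gene mutation and germinal centre B cell products does so too, over a smaller range. It has 0.17, 0.05 and 0.21 there and 0.02 or less elsewhere. The B cell list stays between -0.19 and 0.16, and neutrophil, cell cycle and erythroid genes follow other orders.

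Between the immunized colonies 0 genes of the other germinal centre, T follicular helper, follicular dendritic, plasma cell and B cell lists were called by limma, where 0.143% of all genes were. At an unadjusted p of 0.05, it would have passed 16 of the 112 genes and 9.14% of all genes. Between the naïve colonies Ung, a uracil glycosylase of base excision repair, was higher in BALB/cByJ mice by 0.50 (SE 0.08, adjusted p = 0.00872), Exo1 by 0.48 (SE 0.10, adjusted p = 0.0185) and Ezh2, a histone methyltransferase of germinal centre B cells, by 0.76 (SE 0.13, adjusted p = 0.0082). The part of cell composition in these differences was not tested. Of the 15 genes of G13 signalling, Sphk1, which makes sphingosine-1-phosphate, was higher by 0.58 (SE 0.12, adjusted p = 0.0179), and S1pr3 and the exporter Spns2 were lower. Of the 14 genes of antibody gene mutation and germinal centre B cell products 4 were called higher and 2 lower. Between the naïve colonies 7.54% of all genes were called in either direction. With the erythroid list as a covariate, 0 of the 112 genes of 8 germinal centre and partner lists were called between the naïve colonies, against 13 without it. The erythroid list itself differed between these colonies (median 1.45), so this fit cannot tell list and colony apart, and nothing is read from it.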

How the data were processed

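RNA of spleen pieces from 12 mice was hybridized to Affymetrix mouse genome arrays. Per the study's methods and the submitters' processing notes, the authors summarized probes by robust multi-array average (RMA) with quantile normalization in GeneSpring GX and subtracted each probe set's median over the 12 arrays. The deposited values are log2 values relative to the median array. The log base is not stated, and it was taken as 2 because RMA returns log2 and the values ran from -5.51 to 8.06. They hold no signal level, so that no filter on dim probe sets could be set, and precision is limited by 3 arrays per group. Of 45101 rows 64 control probe sets were left out. Symbols came from the platform annotation, which gave 1 gene for 34945 probe sets, several for 932 and none for 9160.

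Limma 3.58.1 (R 4.3.3) fitted 4 group means over all 12 arrays with eBayes, and p-values were adjusted by Benjamini-Hochberg over all probe sets (or over 18193 genes, averaging probe sets). A call was an adjusted p under 0.05. Intervals are 95% intervals of the fit. The fit was checked on simulated data. Alternatives were the methods' one-way analysis of variance with the Student-Newman-Keuls test, other normalizations, weights, covariates and left-out arrays. Members and lists were chosen with earlier results of these arrays known. All 9 genes are named with every probe set, together with up to 4 called genes per other list, 9 genes chosen whatever their values, and the genes of most similar pattern. Promoters are RefSeq windows matched by gene. Replicates are separate mice.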

Additional observations from a re-analysis of the deposited data

Results flagged for a closer look

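In 3 of the 66 named genes every immunized array of a colony lay to one side of its naïve arrays, and the other colony moved the opposite way without overlap. The share of all genes with this pattern was not computed, so nothing is read from the count. In a single colony, 7.53% (BALB/cJ) and 6.91% (BALB/cByJ) of all probe sets were higher without overlap. Stra6l differed by 0.07 with immunization in BALB/cByJ and by -0.13 in BALB/cJ mice, a difference of the responses of 0.21. Ccnd3, cyclin D3, differed by -0.10 and 0.24, a difference of -0.34 (SE 0.11, limma adjusted p = 0.462). Bcl6b, a paralogue of Bcl6, differed by 0.18 and -0.26, a difference of 0.44 (SE 0.10, limma adjusted p = 0.285). Neither test passed, and that of Stra6l is a description because the gene was chosen on these arrays. With 3 arrays per group, no formal outlier test was run.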

How the results depend on the processing

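Signs of the median differences were kept under all alternatives, except that between the naïve colonies the median turned to 0.013 with the B cell list as a covariate. The numbers below count calls among the 12 probe sets of the germinal centre genes. Over both colonies, calls fell from 4 to 0 with the neutrophil list as a covariate, which was chosen after seeing the data. Omitting the 4 arrays highest in pigment cell genes left naïve BALB/cJ replicate 3 alone in its group, and the median difference was then 0.61. In BALB/cJ mice calls rose from 0 to 2 with array weights and 1 by the methods' analysis of variance, and the median without the pigment arrays was 0.28. In BALB/cByJ mice calls changed from 6 to 2 with the compared groups alone, 1 by the analysis of variance and 0 with the neutrophil covariate. The median became 1.00 with quantile normalization, 1.02 without _s_at, _x_at and _a_at probe sets and 0.97 over genes. Between the naïve colonies calls rose from 0 to 5 with array weights and 3 over genes. Between the immunized colonies they fell from 2 to 1 without the suffixed probe sets, over genes, by the analysis of variance and with the neutrophil covariate. They fell to 0 with the erythroid covariate and with the compared groups alone. Quantile normalization gave medians of 0.75 here and 0.72 for the difference of the responses. The neutrophil list differed with immunization, and the erythroid and B cell lists between the naïve colonies. Fits with these lists as covariates in those comparisons cannot tell list and comparison apart. The cause of these changes was not tested.

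Of the 112 genes in 8 germinal centre and partner lists, 1 was called over both colonies. It became 2 with array weights or the sample-number run, and 0 with the replicate block or with the neutrophil covariate. In BALB/cJ mice 4 were called with array weights. In BALB/cByJ mice the count of 1 became 2 with the run, and 0 with the neutrophil covariate, the compared groups alone or the analysis of variance. Between the naïve colonies 13 became 37 with array weights, 22 with the replicate block and 8 without the suffixed probe sets. It became 0 with the erythroid covariate, the B cell covariate or the analysis of variance. The replicate block gave 3 and 5 calls among the 12 over both colonies and in BALB/cByJ mice, and changed no other count by over 1.5 times. Deviations of same-numbered samples from their group means correlated from -0.29 to 0.37 over 18 pairs (median 0.10). For samples with different numbers they correlated from -0.42 to 0.52 over 36 pairs (median -0.05). These overlapping ranges cannot decide whether same-numbered samples shared more than a replicate number.

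When each array was left out in turn, calls among the 12 ranged from 3 to 5 for immunization over both colonies, 0 to 0 for immunization in BALB/cJ, 2 to 6 for immunization in BALB/cByJ, 0 to 2 for the naïve colonies, 0 to 3 for the immunized colonies and 0 to 1 for the difference of the responses. Median differences ranged from 0.42 to 0.48 for immunization over both colonies, 0.11 to 0.17 for immunization in BALB/cJ, 0.75 to 0.92 for immunization in BALB/cByJ, -0.24 to -0.19 for the naïve colonies, 0.51 to 0.73 for the immunized colonies and 0.42 to 0.66 for the difference of the responses. Calls among the 112 genes ranged from 0 to 1 for immunization over both colonies, 0 to 0 for immunization in BALB/cJ, 0 to 1 for immunization in BALB/cByJ, 2 to 17 for the naïve colonies, 0 to 0 for the immunized colonies and 0 to 0 for the difference of the responses; the naïve count was 2 without naïve BALB/cJ replicate 2 and 4 without naïve BALB/cJ replicate 1 or naïve BALB/cByJ replicate 3. Over both colonies the 1 call was kept without naïve BALB/cJ replicate 1 or immunized BALB/cByJ replicate 2 only.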
